A study of Mus musculus with 6 samples.

Results

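The TAM receptors Axl, Mertk and Tyro3, their bridging ligands Gas6 and Pros1, the integrin bridging protein Mfge8 and the phosphatidylserine receptor Havcr2, better known as Tim-3, were examined in sorted mouse microglia with and without the transcription factor Bhlhe41. These 7 genes were listed by name, and every non-control array probe whose transcript accession belonged to one of them was taken, which gave 10 probes among the 56605 probes of the array and 7 of its 23462 named genes. Axl, Tyro3 and Pros1 each had a pair of probes and the other genes had 1 probe each. The control samples (Ctrl, n = 3) came from young Bhlhe41 dTomato-Cre/+ mice and the Bhlhe41-deficient samples (KO, n = 3) from young Bhlhe41 dTomato-Cre/dTomato-Cre mice, so both groups carried the dTomato-Cre cassette, placed ahead of the Bhlhe41 start codon, and the controls were heterozygous, not wild type. Cells were enriched from brain on Percoll and sorted as CD45 low, CD11b+ and Cx3cr1+. The labels speak of 3 mice per genotype, whereas the methods describe each sample as a pool of mice, and p-values measure the spread between these 6 samples. One array was hybridised with Cy3-labelled RNA of each sample, so that a probe gives a single fluorescence signal per sample.

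A dying cell exposes phosphatidylserine on its surface, and phagocytes recognize this lipid directly or through soluble proteins that bridge it to a receptor. Gas6 and Pros1 are the vitamin K-dependent bridging ligands of the TAM receptor tyrosine kinases, and Mfge8 bridges phosphatidylserine to the alpha v integrins. Microglia use Mertk and Axl in the clearance of apoptotic cells and debris, Mertk as the receptor of the resting state and Axl as one that is raised in inflammation.

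Bhlhe41 binds E-boxes of the form CACGTG, so the promoters of the 7 genes were read for it and for the general E-box CANNTG, which contains it, on both strands. The windows, from RefSeq on GRCm38.p6, held 250 bases before and 50 bases after the start of each gene, and all 7 genes had a window. None of the 7 held CACGTG, which was in 7.15% of all 32851 windows of this length. CANNTG was in 3 of the 7, those of the 3 bridging ligands, against 72.3% of all windows, and in none of the 4 receptor windows. The stretches around these boxes are shown 5′ to 3′ with the E-box in capitals, followed by the 250 bases before the start of Axl, the only gene with a probe called between the genotypes, in which no base is in capitals because neither box was found.
Gas6, chr8:13494694-13494719, minus strand: tgtacctgggCAGATGcccagataca
Pros1, chr16:62854191-62854216, plus strand: ccccgcccccCAGCTGcgaagagctt
Mfge8, chr7:79149277-79149302, minus strand: attatccagcCACTTGttaaaattcc
Axl, chr7:25788734-25788983, minus strand: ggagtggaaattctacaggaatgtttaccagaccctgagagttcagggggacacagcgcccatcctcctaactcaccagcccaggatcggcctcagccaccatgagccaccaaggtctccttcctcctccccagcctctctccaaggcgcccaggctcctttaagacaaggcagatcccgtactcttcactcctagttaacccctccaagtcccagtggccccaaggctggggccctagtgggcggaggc
A match here is a run of letters and not a measured binding site. Its absence says only that these letters are not in these windows.

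Across the array, 70.0% to 75.5% of the probes were well above background in each sample, and no spot was saturated. Values are log2 of the processed signal after quantile normalization, and log2 fold changes are KO minus Ctrl, so that a negative value is a lower signal in KO. A probe was called when its adjusted p in limma with Benjamini-Hochberg adjustment over all 56601 tested probes was 0.05 or less and its log2 fold change was at least 0.5 in size. By this rule 5.07% of all tested probes were called, 1.72% higher and 3.34% lower in KO. Of these calls 66% were lower, and 54.2% were lower when each array was instead shifted to its 75th percentile, a scaling that moved the median log2 fold change of all probes from 0.02 to 0.13. The 2 Bhlhe41 probes gave 0.38 (adjusted p = 0.330) and 0.33 (adjusted p = 0.203), so the transcript was not called lower in KO. It does not check the labels, since the cassette was inserted to end translation of Bhlhe41.

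Of the 10 probes, 1 was called, an Axl probe that was lower in KO, and the other 9 were not. Taking the brightest probe of each gene, 0 of the 7 genes were called by limma, beside 1.44% of all named genes called higher and 4.01% called lower, and 1 of the 7, Tyro3, was lower at an unadjusted p under 0.05, beside 14.4% of all named genes lower and 10.6% higher at that p. The samples of the 2 genotypes did not overlap for 3 of the 10 probes, 1 higher and 2 lower in KO, and 29.7% of all probes were without overlap. The members' share without overlap was thus near that of the whole array. Each of the 10 probes had 1 spot on each array and none was flagged as an outlier.

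**Figure D1:**
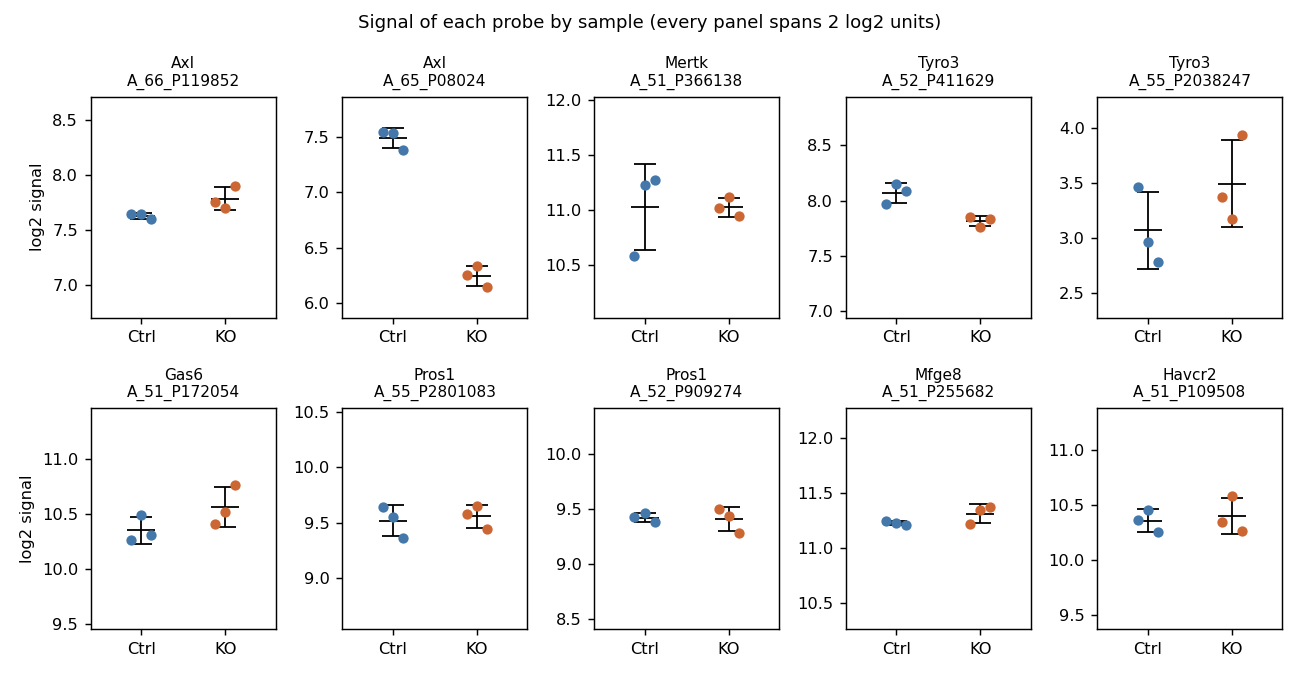
Signal of the 10 probes in each sample, on the log2 scale after quantile normalization. Points are samples 1 to 3 of Ctrl (blue) and KO (orange) from left to right, with the mean and SD as bars, and every panel spans 2 log2 units. The Axl probe A_65_P08024 is the one panel with a wide gap between the genotypes, and Ctrl sample 1 lies apart from the other two for Mertk.

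Axl, the TAM receptor whose ligand is Gas6, was read differently by its 2 probes, both of which are assigned to the same transcript, NM_009465. Probe A_65_P08024 gave log2 signals of 7.55, 7.54 and 7.39 in the Ctrl samples and of 6.25, 6.33 and 6.15 in the KO samples. All KO samples lay more than 1 log2 unit below all Ctrl samples. The mean was 7.49 ± 0.09 (SD, n = 3) in Ctrl and 6.24 ± 0.09 (SD, n = 3) in KO, a log2 fold change of -1.25 with a 95% confidence interval from -1.46 to -1.03, or a signal 2.37 times higher in Ctrl. Its adjusted p in limma was 0.00366.

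Probe A_66_P119852, the brighter of the pair, gave 7.64, 7.65 and 7.60 in Ctrl and 7.75, 7.70 and 7.90 in KO. Every KO sample was above every Ctrl sample, by a small margin. The log2 fold change was 0.15, with a 95% confidence interval from -0.04 to 0.35 and an adjusted p in limma of 0.326, so the difference was not called. The interval of this probe leaves out a decrease of the size that the first probe showed, and the intervals of the 2 probes do not overlap.

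Within an array, the signal of A_66_P119852 exceeded that of A_65_P08024 by 0.10, 0.11 and 0.21 log2 units in the Ctrl samples and by 1.37 to 1.75 in the KO samples. The pair thus gave a wider gap in every KO sample than in any Ctrl sample. The gap widened by 1.40 between the genotypes, with an exact permutation p of 0.1 (two-sided), the smallest that 3 samples against 3 allow. The pair of Pros1 probes, also of 1 transcript, changed against each other by 0.05. The pair of Tyro3 probes was not used as a comparison, since they belong to different transcripts and A_55_P2038247 was well above background in only 1 of the 3 Ctrl samples.

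Such a distance between probes of one transcript was rare on this array. Among 4624 transcripts with several probes well above background in all 6 samples, the log2 fold changes of the probes of one transcript differed by a median of 0.28 and a 95th percentile of 0.83. In 18 of them, or 0.389%, the difference was at least that of Axl. A call on only some probes of a transcript was common: of 658 transcripts with a call, 56 were called on all their probes and 602 on only some. Where on the transcript each Axl probe lies was not analysed here, and the cause of the difference was not tested. The mean over both Axl probes fell by 0.55 on the log2 scale (adjusted p = 0.0125 in limma) and was called, so whether Axl is counted as lower depends on which probe stands for the gene.

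**Figure D2:**
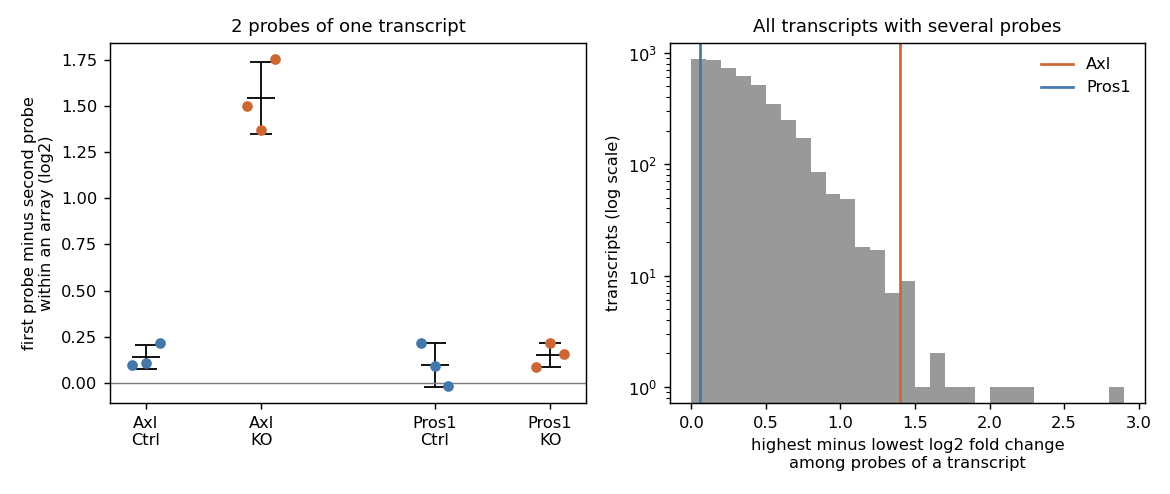
Left, signal of the first minus the second probe of Axl and of Pros1 within each array, in log2 units, with the mean and SD. The Axl difference is 0.10 to 0.21 in Ctrl and 1.37 to 1.75 in KO. Right, number of transcripts (log scale) by the difference between the highest and lowest log2 fold change of their probes, for 4624 transcripts. The lines mark Axl at 1.40 and Pros1 at 0.05.

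All arrays lay on 1 slide, and slide row was not balanced between the genotypes: the Ctrl samples and KO sample 1 lay in row 1, and the other two KO samples in row 2. Within row 1, the KO sample was 1.24 log2 units below the mean of the Ctrl samples on A_65_P08024 (a log2 difference of -1.24), and 0.12 above it on A_66_P119852. With slide row as a block the contrast is that same difference, -1.24, and rests on 1 KO sample. Its adjusted p of 0.0472 in limma assumes that this sample varies like the others, whose spread within genotype and row gives the error.

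Many genes correlated with A_65_P08024 over the 6 samples. The profile of this probe is mainly its genotype difference, so a gene clearly lower in KO can reach a high correlation. The correlations below therefore restate that difference and show no shared pattern beyond it. Of 17206 named genes with a brightest probe well above background on all arrays, 1254, or 7.29%, had a Pearson correlation over 0.95 with it, a description over the 3 samples of each genotype. The 3 nearest, chosen after their values were seen, were Ftsj1 (log2 fold change -0.92), Upk1b (-2.11) and Ciz1 (-1.03), each with a correlation of 0.9997.

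Mertk, the TAM receptor that marks resting microglia and other tissue macrophages, had a mean log2 signal of 11.03 in both genotypes. Its probe A_51_P366138 gave 10.58, 11.23 and 11.27 in Ctrl and 11.02, 11.12 and 10.95 in KO. Ctrl sample 1 was the lowest of all 6 samples, and the KO samples lay between it and the other two Ctrl samples. The log2 fold change was -0.0014 with a 95% confidence interval from -0.50 to 0.49 (adjusted p = 0.998 in limma), the widest interval of the receptors read above background. Changes of up to about 1.41-fold in either direction are inside this interval. Without Ctrl sample 1 the log2 fold change was -0.22, and it was not called.

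Tyro3, the TAM receptor best known from neurons, was read by 2 probes assigned to different transcripts. Probe A_52_P411629, on NM_019392, gave 7.97, 8.15 and 8.08 in Ctrl and 7.85, 7.76 and 7.84 in KO. All KO samples lay below all Ctrl samples, but the fold was under the limit for a call: the log2 fold change was -0.25, with a 95% confidence interval from -0.45 to -0.06 and an adjusted p of 0.128 in limma. Probe A_55_P2038247, on NM_001290800, gave 3.46, 2.97 and 2.78 in Ctrl and 3.37, 3.17 and 3.93 in KO. It was well above background in 1 of the 3 Ctrl samples and in all 3 KO samples, the groups overlapped, and the log2 fold change of 0.42 had an interval from -0.23 to 1.07 (adjusted p = 0.411). It was 0.20 without KO sample 3, 0.28 without Ctrl sample 3 and 0.06 after normexp background correction.

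The ligands differed between the genotypes by less than the limit for a call. Gas6, which binds all TAM receptors and Axl most tightly, gave 10.26, 10.49 and 10.31 in Ctrl and 10.41, 10.52 and 10.76 in KO, on A_51_P172054. KO samples 2 and 3 were above every Ctrl sample and KO sample 1 was not. The log2 fold change was 0.21, with a 95% confidence interval from -0.09 to 0.51 and an adjusted p of 0.371 in limma. It was 0.11 without KO sample 3 and 0.06 with the slide row block.

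Pros1 encodes protein S, an anticoagulant plasma protein and a ligand of Mertk and Tyro3. On A_55_P2801083 its signals were 9.64, 9.55 and 9.36 in Ctrl and 9.58, 9.65 and 9.44 in KO. On A_52_P909274 they were 9.42, 9.46 and 9.38 in Ctrl and 9.50, 9.43 and 9.28 in KO. The genotypes overlapped on both probes, with log2 fold changes of 0.04 (interval from -0.22 to 0.30, adjusted p = 0.871) and -0.02 (interval from -0.22 to 0.19, adjusted p = 0.937), so that both intervals leave out a change of 0.5 in either direction.

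Mfge8, also called lactadherin, gave 11.24, 11.23 and 11.21 in Ctrl and 11.22, 11.35 and 11.37 in KO, on A_51_P255682. KO sample 1 lay among the Ctrl samples and the other two above them. The log2 fold change was 0.09, with an interval from -0.10 to 0.27 and an adjusted p of 0.565 in limma.

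Havcr2 (Tim-3), an inhibitory receptor of T cells that microglia carry in the resting state, gave 10.36, 10.46 and 10.25 in Ctrl and 10.35, 10.58 and 10.26 in KO, on A_51_P109508. The groups overlapped throughout. The log2 fold change was 0.04, with an interval from -0.24 to 0.32 and an adjusted p of 0.872 in limma. For Mfge8 and Havcr2, as for both Pros1 probes, a change of 0.5 in either direction was outside the interval.

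**Figure D3:**
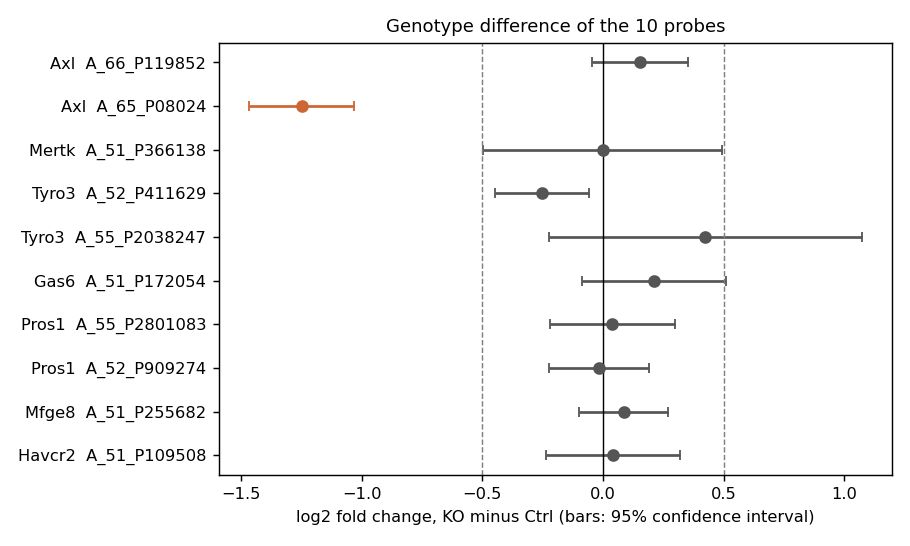
Log2 fold change of each of the 10 probes, KO minus Ctrl, with its 95% confidence interval. Dashed lines mark the fold limit of 0.5 and the called probe is in orange. The interval of Axl A_65_P08024, from -1.46 to -1.03, is the only one that lies wholly beyond a limit.

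Ranked by the brightest probe among all 23462 named genes, the log2 fold changes of the 7 genes lay in the body of the distribution. Tyro3 stood above 20.2% of genes, Mertk above 48.6%, Pros1 above 55.2%, Havcr2 above 55.6%, Mfge8 above 62.6%, Axl above 71.7% and Gas6 above 78.1%. Under the shift to the 75th percentile, and relative to the median of all probes, the called Axl probe was at -1.33, the other Axl probe at 0.04, Mertk at -0.11, the brighter Tyro3 probe at -0.37, Gas6 at 0.06, Mfge8 at 0.00 and Havcr2 at -0.11. The call on A_65_P08024 was made under 13 of 14 alternatives, the slide row block with its single KO sample among them, with log2 fold changes from -1.30 to -0.85. It was lost with replicate number as a block (adjusted p = 0.0574). No other member probe was called under any of them.

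The wider clearance machinery was read from a list of 71 other genes, all of them tested, each by its brightest probe. By limma 9 genes were lower in KO and none was higher, except that Anxa5, an annexin that binds phosphatidylserine, with 0.54 (adjusted p = 0.0508), passed as higher under 3 of the alternatives. Over all named genes 4.01% were called lower and 1.44% higher, the background for this count and for those of the groups given next. At an unadjusted p under 0.05, 22 were lower and 6 higher, to be read against the 14.4% and 10.6% of all named genes. The median log2 fold change of the 71 was -0.03, beside 0.01 over all named genes, and 42 had a negative and 29 a positive sign. The count of 9 was lower when a sample was left out: it was 2 without Ctrl sample 1 or without KO sample 2, 3 without Ctrl sample 2, 5 without KO sample 1 or KO sample 3 and 6 without Ctrl sample 3.

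The largest decreases on the list were among the other phosphatidylserine receptors and bridging molecules, in which 2 of 25 genes were lower. Anxa1, an annexin that apoptotic cells expose and neutrophils hold in quantity, gave 7.78, 7.70 and 7.79 in Ctrl and 4.63, 4.89 and 4.89 in KO. The groups were far apart, with a log2 fold change of -2.95 (interval from -3.19 to -2.71, adjusted p = 0.000479), and a second probe gave -2.88. Anxa1 was called under all 14 alternatives, but after normexp background correction its log2 fold change was -1.74.

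Lgals3, galectin-3, a lectin that serves as a Mertk ligand, gave 8.94, 8.83 and 8.72 in Ctrl and 7.21, 7.23 and 7.19 in KO. The log2 fold change was -1.62 (interval from -1.82 to -1.42, adjusted p = 0.00157), and its second probe, at -1.34, was called too (adjusted p = 0.0115). It was called under 13 of the 14 alternatives and lost with replicate number as a block (adjusted p = 0.0570). In the same group Stab1, the scavenger receptor stabilin-1, at -0.49 (adjusted p = 0.0280), and Cd300a, an inhibitory phosphatidylserine receptor, at -0.46 (adjusted p = 0.0414), missed only the fold limit.

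Cd36, a scavenger receptor, was well above background in all Ctrl samples and in no KO sample, so that only a bound can be given: its signal was at least 1.24-fold higher in Ctrl (adjusted p = 0.0671), with KO set to the lowest signal well above background on each array where that was higher. It was not called, except as lower under the filter on dim probes. The complement chains C1qa, C1qb and C1qc, whose product coats apoptotic cells, gave -0.15, -0.03 and 0.16, and Lrp1, a receptor for C1q-coated and calreticulin-bearing cells, gave 0.11. None of these was called. Of the integrin chains that receive Mfge8, Itgav gave 0.38 (adjusted p = 0.132) with every KO sample above every Ctrl sample, Itgb3 gave 0.28 (adjusted p = 0.303) and Itgb5 gave -0.07, and none of them was called.

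Of 5 ligands and partners of Tim-3, 3 were lower in KO, with a median of -0.56 over the 5. Ceacam1, an adhesion molecule that binds Tim-3, gave 11.58, 11.28 and 11.57 in Ctrl and 10.61, 10.45 and 10.38 in KO. Its log2 fold change was -0.998 (adjusted p = 0.0124), and its second probe, at -0.65, was called too (adjusted p = 0.0194). Bag6, which holds the tail of Tim-3, was at -0.60 (adjusted p = 0.0152), with its other probes at -0.42 and -0.44, neither of them called. Fyn, a kinase that binds the same tail, was at -0.56 (adjusted p = 0.0296), and after normexp its log2 fold change was -0.14 and not called. The other two were not called: Hmgb1, a nuclear protein that dying cells release and Tim-3 binds, gave 0.43 (adjusted p = 0.120) with every KO sample above every Ctrl sample, and Lgals9, galectin-9, gave -0.26 (adjusted p = 0.127) with every KO sample below. Havcr2 itself was not called, as given above.

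Of 8 genes of signalling downstream of the TAM receptors, 2 were lower. Socs3, a feedback inhibitor of cytokine signalling that TAM receptors induce, gave 11.25, 11.25 and 11.08 in Ctrl and 10.56, 10.51 and 10.44 in KO, a log2 fold change of -0.69 (adjusted p = 0.0130). Src, a kinase recruited by active receptors, was at -0.69 (adjusted p = 0.0207), whereas its second probe was at 0.08 (adjusted p = 0.755).

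Of 13 genes of engulfment signalling, 2 were lower, Elmo2, a partner of the Dock exchange factors, at -0.56 (adjusted p = 0.0264) and the adaptor Crkl at -0.54 (adjusted p = 0.0288). A second Crkl probe of the same transcript went the other way, at 0.38 (adjusted p = 0.162). Calls on these lesser decreases were less stable than those on Anxa1 and Lgals3: of the 14 alternatives, Ceacam1 was called under 10, Socs3 under 9, Bag6 under 8, Src under 7, Elmo2 under 6 and Crkl and Fyn under 5.

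No gene was called by limma among the 8 of phosphatidylserine exposure and the signals that hold phagocytes back, the 5 of ligand carboxylation and receptor shedding, and the 7 nuclear receptors and other factors that drive clearance genes. At an unadjusted p under 0.05 these lists held 2 lower genes, 2 lower genes, and 1 lower and 2 higher genes in turn. Calr, the calreticulin that is exposed on dying cells, was at -0.44 (adjusted p = 0.0358) and missed the fold limit. Adam17, the protease that sheds Mertk from the cell surface, was at -0.44 (adjusted p = 0.0879), and Ggcx, the carboxylase that Gas6 and protein S need, at 0.13. Nr1h3, an LXR receptor that induces Mertk in macrophages, was at -0.01.

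**Figure D4:**
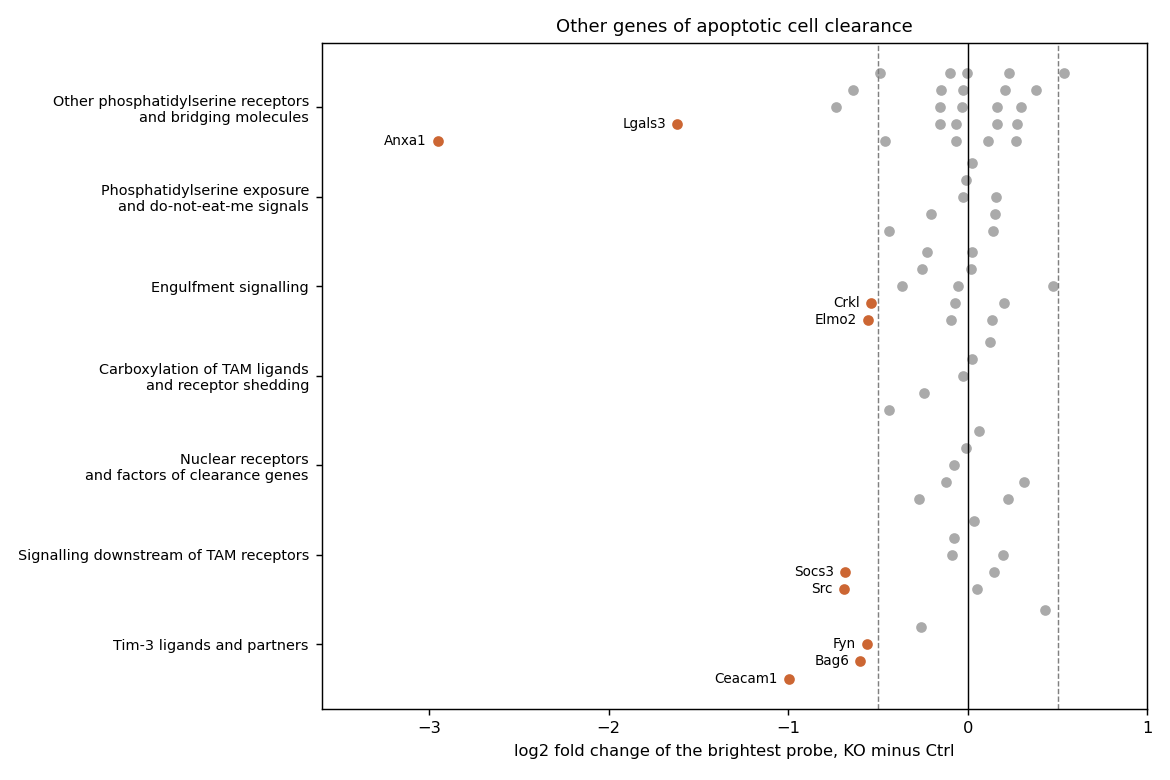
Log2 fold change, KO minus Ctrl, of 71 other genes of apoptotic cell clearance in 7 groups, each gene by its brightest probe. Vertical position within a group only separates the points. The 9 called genes are named and in orange and all are lower in KO, from Crkl at -0.54 to Anxa1 at -2.95. Dashed lines mark the fold limit of 0.5.

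Some markers of other cells moved with the genotype. The gate should remove endothelial cells, which lack CD45 and CD11b, neutrophils, which lack Cx3cr1, and border macrophages, monocytes and dendritic cells where their CD45 is high. In bulk RNA, fewer cells of a type and less RNA per cell cannot be told apart. Of 12 microglia markers, 1 was called lower (Fcrls, at -0.76), and their summed log2 level was 17.51 to 17.62 in Ctrl and 17.49 to 17.55 in KO. Of 12 neutrophil and monocyte markers, 9 were called lower, with a median of -2.16, and their summed log2 level was 14.92 to 15.10 in Ctrl and 12.53 to 12.65 in KO. Ly6g, which defines neutrophils, fell by 2.48 and was above background in all samples. The 3 markers of this list not called by limma did not move alike. Mmp8 was at -0.61 (adjusted p = 0.0535), and Ccr2 at -0.30 (adjusted p = 0.394) with overlapping groups. Vcan was at 0.20 (adjusted p = 0.288) with every KO sample above every Ctrl sample.

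Of 10 border macrophage markers, 5 were called lower, with summed log2 levels of 9.03 to 9.12 in Ctrl and 8.28 to 8.38 in KO. The defining genes Mrc1 and Lyve1 were well above background in all Ctrl samples and in no KO sample. Neither was called by limma: Mrc1 was at -1.26 (adjusted p = 0.0745) and Lyve1 at -1.80 (adjusted p = 0.0974), both from low signals. Siglec1 at -0.23, Folr2 at -0.25 and Cd209f at -0.20 were above background in all samples and not called either. Of 7 dendritic cell markers, 2 were called lower (Cd209a and Clec10a), with summed log2 levels of 8.51 to 8.71 in Ctrl and 7.86 to 8.00 in KO, with a list median of -0.17. Flt3 at 0.14, Itgax at 0.08 and Zbtb46 at 0.01 were above background in all samples and not called, and Xcr1 was not well above background in any sample. Of 8 endothelial markers, 2 were called lower (Pecam1 and Ly6c1), both of which leukocytes express too, with summed log2 levels of 10.25 to 10.38 in Ctrl and 8.92 to 9.02 in KO and a list median of -0.07. Cldn5 at -0.13, Kdr at -0.01 and Slco1a4 at 0.04 were above background in all samples and not called, and the defining gene Cdh5 was not well above background in any sample. The part of these cells in the lower signals of the Axl probe, Anxa1, Lgals3, Ceacam1 and the other called genes was not tested.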

How the data were processed

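Gene expression in 6 samples of sorted microglia was analysed from single-colour Agilent arrays (SurePrint G3). The authors deposited scanner output made with Feature Extraction 11.5.1.1, whose intensity values had the background subtracted within each array but carry no scaling across arrays, together with 1 table of log2 values, read as quantile normalized, that served as an alternative. The 7 genes and the lists of 71 clearance genes and of cell type markers were chosen with earlier results of these data known. So was the rule for named genes: every probe of the 7 genes, each called clearance gene, and the markers a result turns on. Uncalled clearance genes and further markers were named after their values were seen.

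Control and outlier-flagged spots were left out, log2 signals were quantile normalized, and limma 3.58.1 in R 4.3.3 was fitted to all 6 samples with genotype as the only term. Of the 56601 tested probes, 33767 (59.7%) were named through RefSeq accessions (GRCm38.p6). The design names mm9, so no probe positions are given. The number of arrays limits precision. On simulated data with 200 of 56559 probes changed, the fit called 63% of those with a log2 change of 1 and 95% with 2. The adjusted p depends on the share of changed probes, which was smaller there than the 5.07% called in these data. The simulated percentages are therefore not the sensitivity of the fit in these data.

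Alternatives were a 75th percentile shift, the authors' values, removal of probes detected above background on fewer than 3 arrays, inclusion of the outlier spots, normexp (offset 50) on median intensities, trend and robust variance, a block for replicate number or for slide row, omission of each sample, no fold threshold, and the mean over probes. The nearest genes to the called Axl probe and the comparison of probes of one transcript were added after seeing the data. Python 3.11.15 with matplotlib 3.10.9 made the figures.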

Additional observations from a re-analysis of the deposited data

How the results depend on the processing

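The count of called member probes, 1, was 0 with the replicate block, in which the called Axl probe kept its log2 fold change (-1.25) at an adjusted p of 0.0574, and over all probes the calls went from 2867 to 42. Same-numbered samples deviated together with correlations of only 0.03, 0.01 and 0.05, so the numbers were not taken as pairs. The count of called member genes, 0, was 1 (Axl) when a gene's probes were averaged. Of the clearance list, 9 genes were called, 1 with the replicate block, 2 with the slide row block and 2 to 6 with a sample left out. It was 12 with the filter on dim probes, 11 with trend and robust variance, 10 in the authors' values and 13 with no fold threshold. Beyond the 9, Anxa5 was called higher under the first 3 of these, Thbs1 lower under the first 2, Cd36 lower under the first, Cd300a lower after normexp, and Stab1, Cd300a, Calr and Rac2 lower with no fold threshold. Over all probes, 1500 were called after normexp, 444 with the slide row block and 796 to 1487 with a sample left out. Log2 fold changes near 0, none of them called, changed sign: Mertk was at 0.014 with the 75th percentile shift, 0.0667 in the authors' values, 0.0866 after normexp and -0.225 to 0.120 with a sample left out. The Pros1 probe A_55_P2801083 was at -0.0394 to 0.0993 with a sample left out. The Pros1 probe A_52_P909274 was at 0.036 after normexp, 0.0755 with the slide row block and -0.063 to 0.044 with a sample left out. Mfge8 was at -0.0105 with the slide row block. Havcr2 was at -0.0155 after normexp, -0.0098 with the slide row block and -0.0516 to 0.1076 with a sample left out. The fits with a block or without a sample use fewer degrees of freedom, and the cause of the other changes was not tested.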
